A study of Mus musculus with 6 samples.

Results

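Semaphorins, plexins and neuropilins were followed in fibroblasts of mouse mammary tumors (cancer-associated fibroblasts, CAFs) that had been sorted by the surface protein CD34. They were taken by gene symbol: the semaphorins of classes 3 to 7, the plexins A to D and both neuropilins, which gave 31 of the 27179 genes in the count table. Of these, 20 were semaphorins, 9 were plexins and 2 were neuropilins. Enough counts for a test were present for 30 of them, and Plxnb3 was left out, with a level of at most 0.124 CPM (the count of a gene scaled to library size) in any library.

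Semaphorins are secreted or membrane-anchored guidance proteins that were first studied as cues for growing axons and that also act on blood vessels, immune cells and the stroma. Their main receptors are the plexins, whose cytoplasmic part switches off Ras-family GTPases and so loosens the hold of a cell on its matrix. Most secreted (class 3) semaphorins need a neuropilin as the ligand-binding partner of a plexin, and neuropilins also bind vascular endothelial growth factors (VEGFs).

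The tumors arose in raGFP-Wnt1 mice, in which MMTV-Wnt1 drives mammary tumor formation and a Pdgfra-H2B-GFP reporter marks fibroblasts, so that both CAF fractions come from mice with both alleles. The transgene was on FVB/NJ, the reporter on C57BL/6 and heterozygous, and the mice were female. The MMTV promoter is active mainly in mammary epithelium, and the reporter restricts the sort to cells in which Pdgfra is or recently was transcribed. GFP-positive cells from each of 3 tumors were divided into CD34 negative and CD34 positive CAFs, which gave 3 libraries per group, named here after fraction and tumor (negative 1 and positive 1 came from tumor 1). No other treatment was named, and the age of the tumor-bearing mice was not given in the sources used here. In such sorted bulk samples, fewer cells of a type and less RNA per cell cannot be told apart.

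The libraries held between 16238059 and 86609267 counts, and negative 3 had counts for the fewest genes, 14314. Cd34 itself followed the sort, with between 41.9 and 102 CPM in the negative and between 562 and 1604 CPM in the positive libraries. The 8 fibroblast markers summed to between 68127 and 94233 CPM in the negative and between 77370 and 94262 CPM in the positive libraries. Most of each sum came from Col1a1, Col1a2 and Col3a1, so it says little about the other markers. Among markers of other cell types, immune markers summed to between 9.59 and 21.6 CPM over all 6 libraries. Endothelial markers without Tek summed to between 5.94 and 29.9 CPM, and Tek alone had between 48.8 and 116 CPM in the positive libraries. Epithelial markers summed to between 17.0 and 183 CPM and Schwann cell markers to between 51.0 and 128 CPM over all 6 libraries. Pericyte markers reached between 239 and 271 CPM in the negative and between 113 and 201 CPM in the positive libraries, with no overlap.

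CD34 positive CAFs carried more transcript of the ligands Sema3c, Sema3e and Sema6d, and CD34 negative CAFs more of the ligands Sema7a and Sema5a and of the receptor Plxnb2, when the 2 fractions of each tumor were compared with each other. These 6 of 30 genes (20.0%) passed limma-voom at an adjusted p under 0.05 with the tumor as a block, against 8.57% of the 14855 genes tested. Of them, 3 were higher in CD34 negative CAFs, against 4.32% of all genes, and 3 were lower, against 4.25%. Sema3e passed the count filter through its positive libraries, with 4, 13 and 0 counts in negative 1, 2 and 3. Without Sema3e, 5 of 29 genes (17.2%) passed, 3 higher and 2 lower. Without the block, 0 of the 30 passed in limma-voom, where 0.121% of all genes did, 8 of them (26.7%) had an unadjusted p under 0.05, against 14.3% of all genes, and edgeR without the block also called 0 while DESeq2 called 4. The labels do not say whether each tumor came from its own mouse, so every p-value here speaks for these 3 tumors only. With the block, a p-value measures the spread of the differences within tumors. Without the block, it measures the spread of the libraries within each fraction. A positive log2 fold change means more transcript in CD34 negative CAFs.

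**Figure D1:**
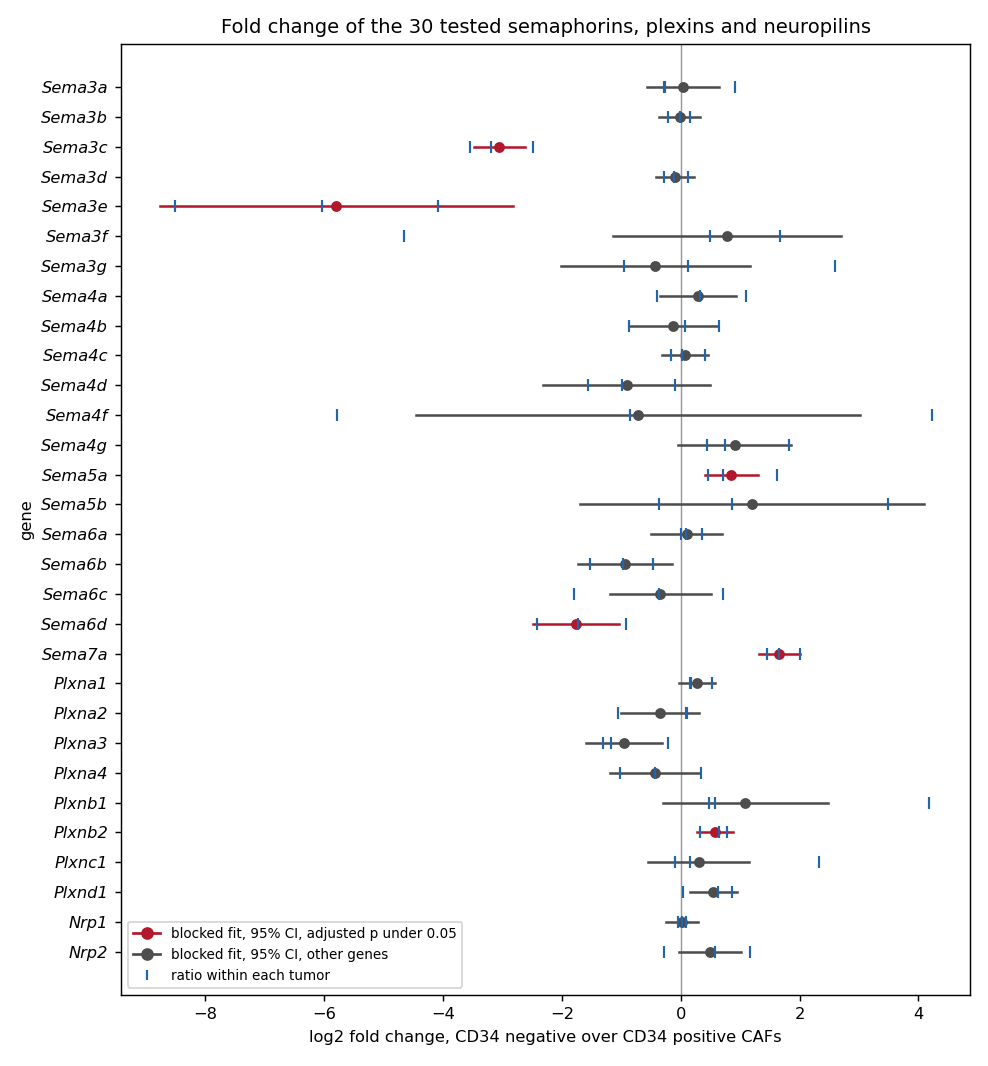
Log2 fold change of CD34 negative over CD34 positive CAFs (horizontal axis) for the 30 tested genes (vertical axis), with the blocked limma-voom estimate as a point, its 95% confidence interval as a bar and the ratio within each of the 3 tumors as a tick. Sema3e, Sema3c and Sema6d lie to the left of 0 and Sema7a, Sema5a and Plxnb2 to the right of 0 (red, adjusted p under 0.05), and the widest intervals belong to genes with few counts, such as Sema4f and Sema5b.

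The family as a whole had no common direction. The median log2 fold change of the 30 genes was 0.01, beside -0.03 for all genes, and 15 estimates lay on each side of 0. The median absolute log2 fold change was 0.57 for the 30 genes and 0.37 for all genes. These medians and signs are from limma-voom without the block. The 0.57 includes genes with few counts and wide errors, such as Sema4f (SE 1.84) and Sema5b (SE 2.08). A ratio of the same sign in all 3 tumors was found for 13 of the 30 (43.3%), against 46.3% of all genes, with 7 higher in CD34 negative CAFs, against 22.8%, and 6 lower, against 23.4%. The groups did not overlap for 7 genes, against 20.5% of all genes, with the negative libraries below in 5 (Sema3c, Sema3e, Sema6b, Sema6d and Plxna3), against 10.0%, and above in 2 (Sema4g and Plxnb2), against 10.4%.

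Sema3c, Sema3e and Sema7a passed with the block in limma-voom, edgeR and DESeq2, and the 250 bases before their annotated starts are shown for that reason. They are RefSeq sequences of GRCm38.p6, all from the plus strand, at chr5:17574566-17574815 for Sema3c, chr5:14025026-14025275 for Sema3e and chr9:57939862-57940111 for Sema7a. The Sema7a window lies before a transcript start inside the annotated span of the gene. Capitals mark each GC box, searched as GGGCGG on both strands.
Sema3c: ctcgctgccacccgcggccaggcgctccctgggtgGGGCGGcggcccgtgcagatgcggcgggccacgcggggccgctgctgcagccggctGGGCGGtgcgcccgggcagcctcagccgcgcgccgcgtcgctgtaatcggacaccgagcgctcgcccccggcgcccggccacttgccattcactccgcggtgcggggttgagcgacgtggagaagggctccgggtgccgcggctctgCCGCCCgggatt
Sema3e: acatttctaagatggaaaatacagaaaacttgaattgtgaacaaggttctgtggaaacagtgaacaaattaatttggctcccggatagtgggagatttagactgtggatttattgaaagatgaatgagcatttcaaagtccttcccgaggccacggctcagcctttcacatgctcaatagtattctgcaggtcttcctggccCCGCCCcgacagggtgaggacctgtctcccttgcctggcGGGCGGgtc
Sema7a: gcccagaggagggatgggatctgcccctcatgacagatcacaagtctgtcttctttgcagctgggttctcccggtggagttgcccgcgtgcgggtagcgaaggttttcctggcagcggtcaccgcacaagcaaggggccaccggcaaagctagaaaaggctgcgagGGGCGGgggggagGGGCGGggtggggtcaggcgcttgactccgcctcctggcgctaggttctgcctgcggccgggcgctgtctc
The Sema3c window held 3 GC boxes and the other two windows held 2 each. Its GC content of 78.4% was above the 66.4% of Sema7a and the 48.0% of Sema3e. Of 8 motifs searched, no other was present in these windows (the TATA box as TATAAA, the CCAAT box as CCAAT, TCF/LEF as CTTTGAT, AP-1 as TGANTCA, TEAD as GGAATG, the E-box as CACGTG and RUNX as TGTGGT, each on both strands).

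The wider family had GC-rich starts. RefSeq promoter entries were matched for 26 of the 31 genes, 37 entries in all. A GC box was present in 27 of the 37 (73.0%), beside 32.7% of all 32851 entries of the same length. Their median GC content was 64.0%, beside 52.4% for all entries. TATAAA was present in 0 of the 37, beside 12.4% of all entries. These counts describe letters in the windows and were not set against the fold changes.

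The 2 largest differences of the family were those of Sema3e and Sema3c, which are secreted class 3 semaphorins. As a class they changed less, with a median absolute log2 fold change of 0.25 beside 0.57 for the 30 genes (limma-voom without the block). Of 7 genes, 2 passed with the block, both lower in CD34 negative CAFs, against 4.25% of all genes. Without Sema3e, which entered the test through its positive libraries, only Sema3c passed. Sema3c (gene 20348, chr5:17574816-17730268) encodes a secreted ligand that signals through neuropilin and plexin complexes and is known for guiding migrating cells in the developing heart. Its level was 73.0, 30.1 and 112 CPM in negative 1, 2 and 3. In positive 1, 2 and 3 it was 408, 352 and 1021 CPM. Every positive library was above every negative one, and tumor 3 had the highest level in both fractions. Within tumors 1, 2 and 3 the CD34 positive level was 5.60, 11.7 and 9.15 times the CD34 negative level. The log2 fold change of Sema3c was -3.05 ± 0.19 (SE) with the block (limma-voom, adjusted p = 7.84e-05) and -3.10 ± 0.53 without it (limma-voom, adjusted p = 0.0735). It passed in 6 of the 14 other settings that used all 6 libraries, and with the block it passed without each tumor in turn.

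Sema3e (gene 20349, chr5:14025276-14256689) encodes the class 3 semaphorin that binds Plxnd1 without a neuropilin and is known for vessel patterning. It had 4, 13 and 0 counts in negative 1, 2 and 3 and 84, 433 and 142 counts in positive 1, 2 and 3. As a level this was 0.0712, 0.288 and 0 CPM in the negative libraries, and 5.20, 5.07 and 5.01 CPM in the positive libraries. The positive libraries stood close to each other and far above every negative library, and a count of 0 in negative 3 allows a level of up to 0.0825 CPM (3 counts, counting error only). If counting error alone gave the 0, the CD34 positive level was at least 60.7-fold higher in tumor 3. Negative 3 also had counts for the fewest genes, 14314, and other genes of low level, such as Sema3f, nearly vanished there. The 60.7-fold is therefore not a firm lower limit. The ratio of the CD34 positive to the CD34 negative level was 73.0 in tumor 1 and 17.6 in tumor 2. The positive libraries were enough for the gene to enter the test, and the negative libraries alone were not. With the block its adjusted p was 0.0268 and without it 0.0967 (limma-voom). The fitted log2 fold changes, -5.80 and -6.16, depend on the value put in place of the 0. With the block, the call was lost without tumor 1 (limma-voom, adjusted p = 0.210) and without tumor 2 (adjusted p = 0.166).

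**Figure D2:**
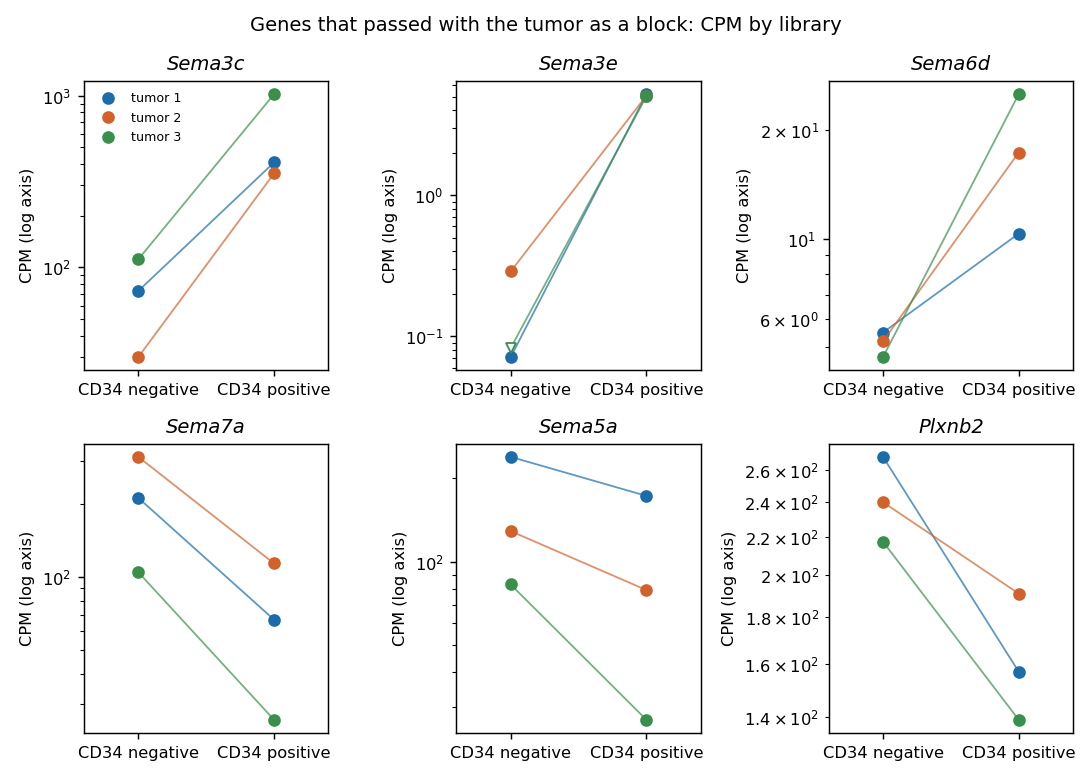
CPM (log axis) in CD34 negative and CD34 positive CAFs for the 6 genes that passed limma-voom with the tumor as a block, with one colored line per tumor and no error bars, since every library is shown. The open triangle for Sema3e stands for a count of 0, drawn at 3 counts (0.0825 CPM), and in each panel the 3 lines run in the same direction.

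The other 5 class 3 semaphorins did not pass with the block. Sema3d had 71.6, 81.8 and 62.2 CPM in the negative and 87.1, 88.9 and 57.0 CPM in the positive libraries. These ranges overlapped, and the blocked log2 fold change of Sema3d was -0.09 with a 95% interval from -0.41 to 0.22. Sema3b lay between 32.9 and 48.4 CPM in all 6 libraries, with a blocked interval from -0.37 to 0.33. Sema3a, which acts through Nrp1, lay between 9.73 and 18.4 CPM. Sema3f, which acts through Nrp2, had 5.04, 1.22 and 0.0275 CPM in the negative libraries and between 0.866 and 1.55 CPM in the positive ones, so its level varied more among the negative libraries than between the groups. Sema3g stayed between 0.0619 and 2.29 CPM.

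Sema3e and Sema3c are neighbors of Sema3d and Sema3a on chromosome 5. The stretch chr5:12383161-17730268 (GRCm38.p6) held 6 tested genes, in the order Sema3d, Sema3a, Sema3e, Cacna2d1, Hgf and Sema3c. With the block, Sema3e and Sema3c passed and the other 4 did not. Hgf, the tested gene before Sema3c in this stretch, had a blocked log2 fold change of -0.50 (limma-voom, adjusted p = 0.150), and Cacna2d1, which follows Sema3e, had one of 0.02 (adjusted p = 0.947). Genes beyond the end of Sema3c were not examined.

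Of the 13 membrane-bound semaphorins, 2 were higher and 1 was lower in CD34 negative CAFs with the block, against 4.32% and 4.25% of all genes. Sema7a (gene 20361, chr9:57939596-57962865), the glycolipid-anchored semaphorin that binds beta1 integrins and Plxnc1, had 211, 311 and 105 CPM in negative 1, 2 and 3. In positive 1, 2 and 3 it had 66.8, 114 and 26.0 CPM. Negative 3 lay below positive 2, so the groups overlapped, but within each tumor the CD34 negative level was higher. The ratio was 3.16 in tumor 1, 2.74 in tumor 2 and 4.03 in tumor 3. The log2 fold change of Sema7a was 1.66 ± 0.15 with the block (limma-voom, adjusted p = 0.000549) and 1.67 ± 0.57 without it (limma-voom, adjusted p = 0.245).

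Sema5a (gene 20356, chr15:32244813-32696341), a transmembrane semaphorin with thrombospondin repeats, had 239, 129 and 82.9 CPM in negative 1, 2 and 3. In the positive libraries it had 173, 79.2 and 26.9 CPM. Both fractions were highest in tumor 1 and lowest in tumor 3, the groups overlapped, and the CD34 negative level was higher within each tumor. The ratio was 1.38, 1.63 and 3.08 in tumors 1, 2 and 3, where the ratio of the summed epithelial markers was 1.18, 1.57 and 3.35, and the part of these markers in the difference was not tested. The log2 fold change of Sema5a was 0.85 ± 0.20 with the block (limma-voom, adjusted p = 0.0294) and 1.00 ± 0.62 without it (limma-voom, adjusted p = 0.501). With edgeR and the block it did not pass, as was also true of Sema6d and Plxnb2.

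Sema6d (gene 214968, chr2:124089943-124667789), a transmembrane ligand of Plxna1, had 5.50, 5.20 and 4.70 CPM in negative 1, 2 and 3. In positive 1, 2 and 3 it had 10.3, 17.3 and 25.1 CPM. The negative libraries lay close together and all below the positive libraries, which spread more widely. The log2 fold change of Sema6d was -1.76 ± 0.32 with the block (limma-voom, adjusted p = 0.0115) and -1.76 ± 0.36 without it (limma-voom, adjusted p = 0.0906).

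The other 10 membrane-bound semaphorins did not pass. Sema6b had 4.93, 4.45 and 2.25 CPM in the negative and 6.80, 8.75 and 6.49 CPM in the positive libraries. Its groups did not overlap, and its blocked log2 fold change was -0.94 ± 0.35 (limma-voom, adjusted p = 0.143). Sema4g had 13.2, 4.38 and 4.29 CPM in the negative and 3.71, 3.23 and 2.54 CPM in the positive libraries. Its groups also did not overlap, and negative 1 stood apart from the other libraries (blocked limma-voom, adjusted p = 0.235). Sema4c, a ligand of Plxnb2, lay between 28.1 and 42.7 CPM in all libraries, with a blocked 95% interval from -0.31 to 0.46 on the log2 scale. Sema4d, the ligand of Plxnb1, was at 1.04 to 1.58 CPM in the negative and 1.31 to 4.64 CPM in the positive libraries. Sema4a at 8.75 to 24.9 CPM, Sema4b at 3.34 to 9.45 CPM and Sema6c at 4.59 to 19.2 CPM overlapped between the groups, as did Sema6a, whose blocked 95% interval ran from -0.50 to 0.70. Sema4f and Sema5b stayed below 1 CPM in every library and had 0 counts in some.

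Scaled by gene length (RPKM, which is CPM divided by the length in kilobases), Sema7a had rank 1 of the 31 genes in CD34 negative CAFs and rank 4 in CD34 positive CAFs, whereas Sema3c had ranks 5 and 1. Sema3c reached 14.7, 6.06 and 22.5 RPKM in negative 1, 2 and 3 and 82.4, 71.1 and 206 RPKM in the positive libraries. Sema7a reached 64.4, 94.9 and 31.9 RPKM in the negative and 20.4, 34.7 and 7.92 RPKM in the positive libraries. Sema7a was thus the more abundant of the pair in every negative library and Sema3c in every positive library. Over all 6 libraries, 21 of the genes had a mean of at least 1 RPKM and 8 a mean of at least 10 RPKM.

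**Figure D3:**
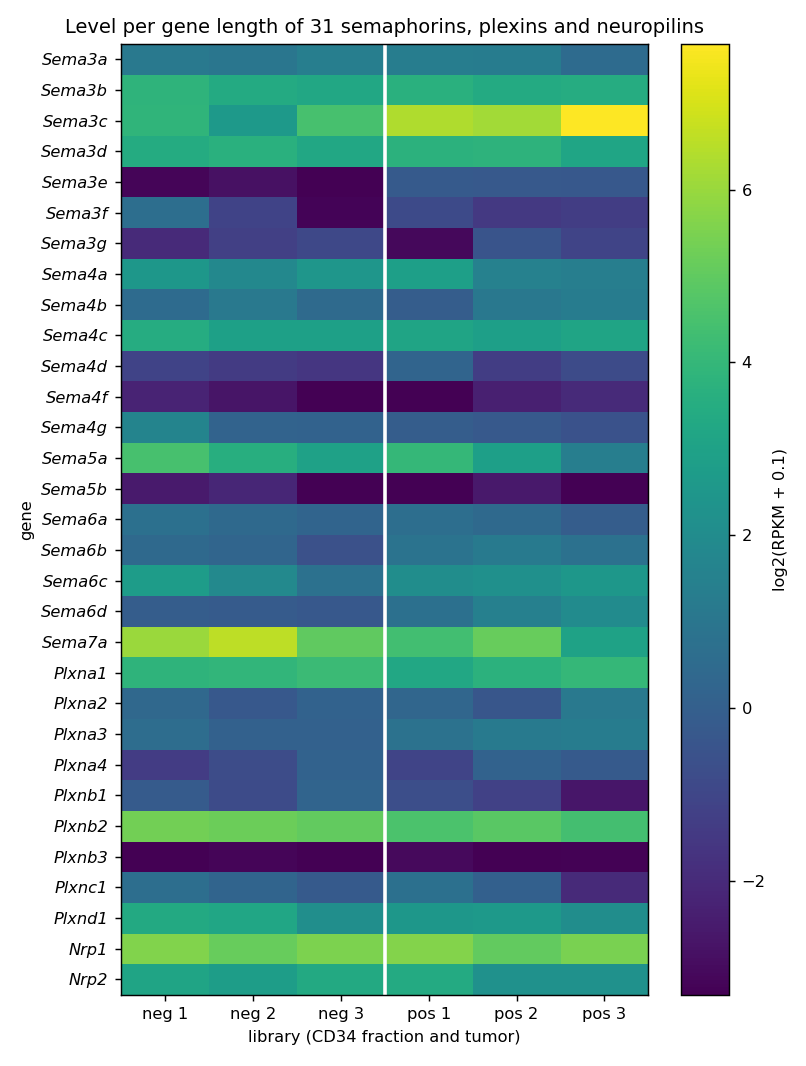
Level per gene length, as log2(RPKM + 0.1), of the 31 genes (rows) in the 6 libraries (columns, CD34 negative to the left of the white line), where brighter cells are higher. Sema3c is brightest in positive 3 (206 RPKM), Sema7a in negative 2 (94.9 RPKM), and Nrp1 and Plxnb2 are bright in all 6 libraries.

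Sema3c made up 9.08%, 3.80% and 21.7% of the summed semaphorin RPKM in negative 1, 2 and 3. In positive 1, 2 and 3 its share was 46.9%, 43.1% and 77.5%. The share of Sema7a was 39.7%, 59.5% and 30.8% in the negative and 11.6%, 21.0% and 2.98% in the positive libraries. Neither share overlapped between the groups. Both are parts of the same total, so more Sema3c by itself lowers the share of Sema7a, and the 2 are not separate findings. The level of Sema7a did overlap, with 31.9 RPKM in negative 3 and 34.7 RPKM in positive 2. Summed over the 7 secreted semaphorins, the level was 31.6 to 44.6 RPKM in the negative and 99.1 to 229 RPKM in the positive libraries. Without Sema3c the same sum was 22.1 to 28.8 RPKM and 22.6 to 29.6 RPKM, so that the ranges nearly coincided. The membrane-bound semaphorins summed to 59.2 to 128 RPKM in the negative and 37.0 to 65.9 RPKM in the positive libraries, and without Sema7a to 27.3 to 54.2 RPKM and 29.1 to 43.4 RPKM. These sums are descriptions and were not tested.

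**Figure D4:**
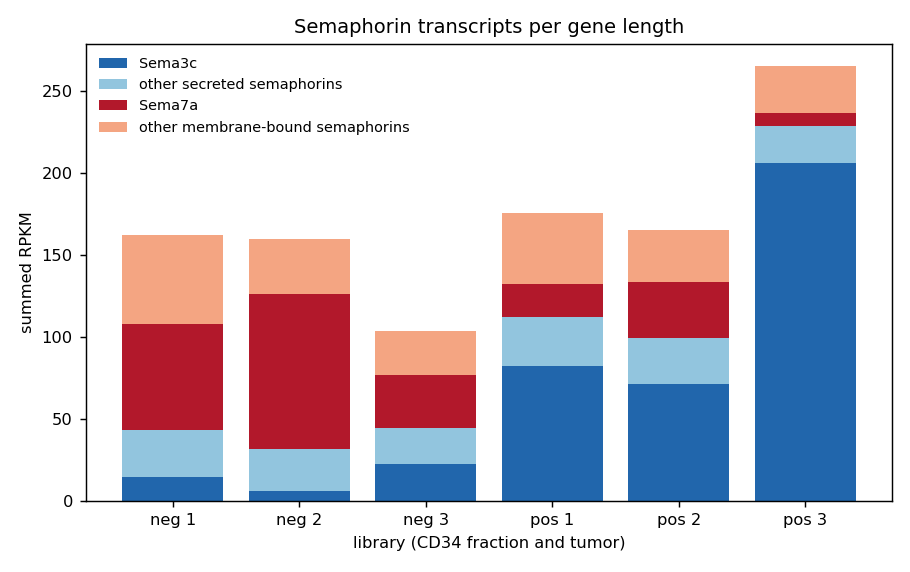
Summed RPKM of the semaphorins in each library (bars, from 0), split into Sema3c, the other secreted semaphorins, Sema7a and the other membrane-bound semaphorins. Sema3c makes up 43.1% to 77.5% of the bar in the positive libraries and 3.80% to 21.7% in the negative libraries.

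Among the plexin receptors, Plxnb2 passed with the block and 7 of the 8 tested did not. Plxnb2 (gene 140570, chr15:89155546-89182018), a receptor of class 4 semaphorins, had 269, 240 and 217 CPM in negative 1, 2 and 3. In positive 1, 2 and 3 it had 157, 191 and 139 CPM. All negative libraries lay above all positive libraries, by a margin that was smallest in tumor 2, where the ratio was 1.26, beside 1.71 in tumor 1 and 1.56 in tumor 3. The log2 fold change of Plxnb2 was 0.58 ± 0.14 with the block (limma-voom, adjusted p = 0.0298) and 0.59 ± 0.18 without it (limma-voom, adjusted p = 0.208). With the block, the call was lost without tumor 1 (limma-voom, adjusted p = 0.0955) and without tumor 2 (adjusted p = 0.0503).

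Plxnb2 was also the most abundant plexin per gene length, with 33.2 to 41.0 RPKM in the negative and 21.2 to 29.1 RPKM in the positive libraries. It made up between 45.6% and 58.2% of the summed plexin RPKM of a library. Plxna1, a receptor for class 3 and class 6 semaphorins, came next, with 126, 135 and 161 CPM in the negative and 87.9, 122 and 143 CPM in the positive libraries. The Plxna1 groups overlapped, the negative level was higher within each tumor, and the blocked 95% interval of its log2 fold change ran from -0.04 to 0.57.

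Plxna3 had 9.98, 6.82 and 6.65 CPM in the negative and 11.5, 15.5 and 16.4 CPM in the positive libraries. Its groups did not overlap, and its blocked log2 fold change was -0.95 ± 0.28 (limma-voom, adjusted p = 0.0756). Plxnd1, the receptor of Sema3e, had 70.8, 62.8 and 29.0 CPM in the negative and 39.0, 40.7 and 28.1 CPM in the positive libraries. Its negative level was higher within each tumor, by little in tumor 3, and the blocked log2 fold change was 0.55 ± 0.18 (limma-voom, adjusted p = 0.0968). Without tumor 3 it passed (blocked limma-voom, adjusted p = 0.0107), as did 2019 of 15514 genes. Tumor 3 was the one with the smallest difference, so this pass adds no support. Plxnb1 had a blocked log2 fold change of 1.09 ± 0.62 (limma-voom, adjusted p = 0.342), with 0.494 CPM in positive 3 and between 2.90 and 9.21 CPM in the other 5 libraries. Plxnc1, the plexin that binds Sema7a, was at 1.06 to 10.9 CPM with overlapping groups, and Plxna2, at 7.29 to 22.7 CPM, and Plxna4, at 3.59 to 12.5 CPM, overlapped as well.

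Both neuropilins were present in both fractions. Nrp1, which binds class 3 semaphorins and VEGF-A, had 286, 208 and 270 CPM in negative 1, 2 and 3. In positive 1, 2 and 3 it had 297, 195 and 264 CPM. The fractions of a tumor were close to each other and tumor 2 was lowest in both, with a blocked log2 fold change of 0.02 ± 0.12 and a 95% interval from -0.25 to 0.29. At 33.0 to 50.1 RPKM, Nrp1 ranked second of the 31 genes in each group.

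Nrp2, which binds Sema3f and the lymphatic factor VEGF-C, had 69.4, 56.7 and 83.4 CPM in the negative and 84.4, 38.2 and 37.3 CPM in the positive libraries. The negative level was lower in tumor 1 and higher in tumors 2 and 3. The blocked log2 fold change of Nrp2 was 0.50 ± 0.23 (limma-voom, adjusted p = 0.237). Without tumor 1 it passed (blocked limma-voom, adjusted p = 0.0152), as did 1134 of 14893 genes. Tumor 1 was the one of opposite direction, so this pass adds no support. Nrp1 made up between 81.6% and 90.7% of the summed neuropilin RPKM of a library.

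Across the 24 genes that did not pass with the block, 10 had a blocked 95% interval that stayed within 1 log2 unit of 0. For the others, among them Sema3f, Sema4d, Sema5b and Plxnb1, a difference of 1 log2 unit in at least one direction lay inside the interval.

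Genes that work with the semaphorin receptors were counted as a second list of 60, of which 56 were tested. With the block 17 passed (30.4%), 6 higher and 11 lower in CD34 negative CAFs, against the 8.57% of all genes given above. The list was chosen with earlier results of these data known, so its share is a description and not an independent test. Without the block 2 passed, Pcsk6 and Vegfd, both lower. Among the receptor partners, 5 of 14 passed. Nrcam, an L1-family adhesion molecule that binds neuropilins, had 0.712, 2.10 and 3.22 CPM in the negative and 7.30, 29.6 and 17.9 CPM in the positive libraries, with no overlap. Its relative Chl1 had 0.569, 17.8 and 71.6 CPM in the negative and 3.34, 142 and 241 CPM in the positive libraries. Chl1 differed more between tumors than between fractions, and it was lower in the negative fraction of each tumor. With the block the log2 fold change was -3.26 ± 0.44 for Nrcam (limma-voom, adjusted p = 0.0029) and -2.30 ± 0.26 for Chl1 (adjusted p = 0.00148).

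Met, the receptor of hepatocyte growth factor that associates with class B plexins, was lower in CD34 negative CAFs, with a blocked log2 fold change of -1.61 ± 0.36 (limma-voom, adjusted p = 0.0247). Flt1, a VEGF receptor, was higher, at 17.8, 58.6 and 44.2 CPM in the negative and 7.36, 17.7 and 3.00 CPM in the positive libraries (blocked limma-voom, adjusted p = 0.00768). Ptk7, a catalytically inactive receptor kinase of planar polarity signaling, was higher as well, at 240, 337 and 301 CPM beside 92.1, 166 and 68.4 CPM (blocked limma-voom, adjusted p = 0.0029). For both, the groups did not overlap. Kdr, the VEGF receptor that is an endothelial marker, was at 1.84 to 12.6 CPM and did not pass.

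Of 29 tested cytoplasmic effectors, 8 passed with the block, 3 higher and 5 lower in CD34 negative CAFs. The lower ones included the Ras-family proteins Rras2, with a blocked log2 fold change of -1.06 ± 0.14, and Rap1a, at -0.99 ± 0.20 (limma-voom, adjusted p = 0.00319 and 0.0178). The kinase Fyn was lower and Mical1, Mical2 and Limk2 higher, each by less than 1 on the log2 scale. Of 8 proteases that cleave semaphorins, Pcsk6 and Adamts1 were lower and Furin was higher. Pcsk6, a proprotein convertase, had 18.0, 21.7 and 15.9 CPM in the negative and 109, 103 and 124 CPM in the positive libraries, while Furin had 90.5, 105 and 86.6 CPM beside 45.8, 73.6 and 67.2 CPM. These 2 convertases thus lay on opposite sides, and neither overlapped between the groups, as was true of 20.5% of all genes. Of the other convertases listed, Pcsk5 was also above without overlap but did not pass (blocked limma-voom, adjusted p = 0.0781). Pcsk7 overlapped and did not pass. Of 5 VEGF ligands of the neuropilins only Vegfd passed, at 20.9, 29.5 and 30.8 CPM in the negative and 123, 187 and 146 CPM in the positive libraries.

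Of the 8 fibroblast markers, 1 was higher in CD34 negative CAFs with the block, Pdgfrb (limma-voom, adjusted p = 0.00714). Lower were 2, Dcn and Lum (limma-voom, adjusted p = 0.00154 and 0.0140). Markers of other cells also moved with the fraction in part. Of the 7 tested pericyte markers, 3 were higher with the block in CD34 negative CAFs (Cspg4, Mcam and Notch3) and 2 were lower (Abcc9 and Kcnj8). Summed endothelial markers were 11.4 to 39.2 CPM in the negative and 58.7 to 124 CPM in the positive libraries. Tek supplied most of the sum in the positive libraries. Cdh5, Emcn and Cldn5 had at most 4.18 CPM in any library and 0 counts in some, while Pecam1 and Kdr had 12.9 and 12.6 CPM in positive 1. Of the 10 endothelial markers, 2 were higher and 2 lower in the negative fraction of all 3 tumors. Epithelial markers summed to 183, 153 and 57.0 CPM in negative 1, 2 and 3 and to 154, 97.2 and 17.0 CPM in positive 1, 2 and 3. The negative sum was thus higher within each tumor, by ratios of 1.18, 1.57 and 3.35, and 7 of the 10 epithelial markers were higher in the negative fraction of all 3 tumors. The lowest blocked adjusted p among the 10 was 0.0532 (Cldn4, limma-voom). Schwann cell markers summed to 82.8, 128 and 112 CPM in the negative and 66.8, 101 and 51.0 CPM in the positive libraries, higher in the negative fraction of each tumor, and Foxd3 was at 0 in all 6 libraries. Their part in the differences of Sema3c, Sema3e, Sema6d, Sema7a, Sema5a and Plxnb2 was not tested.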

How the data were processed

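RNA sequencing of both CD34 fractions of 3 tumors was analysed, with 3 libraries per group. The deposited values are raw counts per NCBI gene, which the authors made with Rsubread on GRCm38. The aligner settings, the use of strand and the treatment of reads with several matches are not given in the sources used here, so that reads of overlapping or antisense genes cannot be told apart. Where a gene in the table overlapped a semaphorin, plexin or neuropilin, it held at most 57 counts (Lsmem2, beside 10373 of Sema3b). Groups and tumor numbers came from the sample titles.

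After filterByExpr (minimum count 10) and TMM scaling, 14855 genes were compared by limma-voom with a two-sided Benjamini-Hochberg threshold of 0.05, all with R 4.3.3, limma 3.58.1 and edgeR 4.0.16. The main design had no tumor term, since the study's methods name none. Both fractions of a number came from one tumor and their deviations from the group means correlated (0.373, 0.350 and 0.219), so the blocked fit is given beside it. CPM and RPKM use TMM-scaled library totals and the deposited gene length; summed marker CPM do too. Gene positions and promoters are from RefSeq (GRCm38.p6). Totals between 16238059 and 86609267 counts set the precision, and floors of 3 counts cover counting error only.

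The genes, lists and tests were chosen with earlier results of these data known. Genes that passed either fit and the 2 most abundant of each class are given in every library; partner genes are named at a blocked adjusted p under 0.05 and a log2 fold change over 1 in size, and others by count or single values. Of the partner genes, 2 enter the counts and are not reported here on their own. Alternatives covered the block, the test (edgeR, DESeq2 1.42.0), scaling, filter, annotation and each library and tumor. Scripts were tested on simulated data.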

Additional observations from a re-analysis of the deposited data

How the results depend on the processing

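Beside 0 calls among the 30 genes without a block, limma-voom with the tumor as a replicate block gave 6, a random tumor effect 4, edgeR with the block 3, DESeq2 4, DESeq2 with the block 6 and sample quality weights 2. Over all genes, 18 calls became 1273, 703, 575, 698, 1733 and 161 in the same order, 9 with edgeR and 32 with library totals alone. For the partner genes, 2 calls became 17, 8, 8, 10 and 21 with the block, the random effect, edgeR with the block, DESeq2 and DESeq2 with the block. Scaling, filter and annotation left the 30 genes at 0 calls. Leaving out libraries or tumors, with and without the block, gave 0 to 7 calls among the 30, 0 to 2019 over all genes and 0 to 18 among partners. Without the block and without both libraries of tumor 1, Sema3c alone passed. The 6 genes that passed with the block kept their direction in every setting run.

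With all 6 libraries, directions turned for 6 genes, none of which passed in that setting. Nrp1 (-0.00 on the log2 scale) became 0.022 with the block in limma-voom and edgeR and with limma-trend, 0.0075 with the random effect, 0.014 with edgeR, 0.010 with DESeq2 and the block, 0.0022 with DESeq2 and 0.037 with no filter. Sema3b (0.02) became -0.019 with the block in limma-voom, -0.020 with the block in edgeR and with limma-trend, -0.014 with DESeq2, -0.032 with DESeq2 and the block, -0.0028 with edgeR and -0.0031 with library totals. Sema3f (-0.25) became 0.77 with the block, 0.88 with edgeR, 0.87 with DESeq2 and 0.76 with quality weights. Sema3g (-0.37) became 0.42 with edgeR and the block, 0.44 with DESeq2 and the block and 0.55 with limma-trend. With quality weights Sema3d became 0.052 and Sema4f 0.050. The cause was not tested.

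Leaving out libraries or tumors turned more of them, over these ranges: Sema4c -0.081 to 0.23, Plxna2 -0.78 to 0.37, Sema3g -1.10 to 1.00, Sema5b -0.16 to 2.78, Sema4a -0.033 to 0.81, Sema6c -0.95 to 0.16, Sema3d -0.30 to 0.041, Sema3a -0.29 to 0.41, Plxna4 -1.11 to 0.14, Sema4f -3.13 to 0.88, Sema4b -0.49 to 0.19, Nrp1 -0.16 to 0.13, Sema3b -0.16 to 0.11 and Sema3f -1.98 to 1.39. At these depths a count of 0 allows a level of up to 0.0351 to 0.186 CPM, depending on the library.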
